A study of Arabidopsis thaliana with 4 samples.

Results

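The genes described here encode 10 subunits of the machinery that carries proteins made in the cytosol into the plastids of Arabidopsis thaliana. They were chosen by locus identifier from the 34133 loci of each table, with earlier results of these data known. All 10 were present and tested in both tissues. TOC159, TOC132, TOC120, TOC33, TOC34 and TOC75-III belong to the translocon of the outer envelope membrane (TOC). TIC110, TIC40 and TIC20-I belong to that of the inner envelope membrane (TIC), and CLPC1 encodes a stromal chaperone of the AAA+ class that works with it.

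Wild type (Col0) was compared with a double knockout, labelled AtTric1&2 dko and called the dko here, of AtTric1 (AT3G49560) and AtTric2 (AT5G24650). Their products are relatives of the Tim17, Tim22 and Tim23 import proteins. They have been placed in mitochondria, where they are linked to tRNA import, and, under the names HP30 and HP30-2, in the inner envelope of the chloroplast. Rosette leaves came from 4-week old plants that had been moved to soil at 5 days, and whole seedlings were 2 weeks old. All 4 groups shared a temperature of 22 °C, a day length of 16 h and, by label, the light intensity. They also shared stratification at 4 °C for 2 days, and each group is stated to hold 3 replicates. The labels do not say whether those came from separate plants, nor where the 2 genes are interrupted, and p-values therefore reflect the spread among these samples alone, part or all of which may be technical.

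Total RNA was sequenced after removal of ribosomal RNA. The deposited FPKM (fragments scaled by transcript length and library size) is 1 value per locus and group, pooled over the replicates by the authors. Standard deviations can therefore not be given, and the spread between replicates enters only through the authors' q-value, for which 0.05 was the threshold. The authors' deposited tables list TRIC1 in wild type and dko at 34.7 against 10.7 FPKM for rosettes (q = 0.000899) and at 33.9 against 16.2 FPKM for seedlings (q = 0.000768). TRIC2 is listed in the authors' deposited tables at 17.5 against 0.069 FPKM for rosettes (q = 0.146) and at 17.7 against 0.366 FPKM for seedlings (q = 0.000768). TRIC1 signal was thus still present in the dko groups. Among 3 root marker genes, CASP1, COBL9 and EXPA7, summed wild-type FPKM was 0.186 in rosettes and 1.54 in whole seedlings. The dko sums were 0.0468 and 1.48, so these 3 transcripts were low in the seedling groups as well. Other root-specific transcripts were not examined.

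Many proteins bound for the plastid, though not all, carry a cleavable transit peptide at their amino terminus. GTP-binding receptors of the TOC159 and TOC34 families recognise it at the outer envelope, TOC75 forms the channel there, and the inner envelope translocon with its stromal motor completes the transfer. Arabidopsis has several receptor isoforms: TOC159 and TOC33 are best known for importing abundant photosynthetic proteins into leaf chloroplasts, and TOC132, TOC120 and TOC34 have been linked more to other plastid proteins.

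In the dko, the genes for the inner-envelope scaffold TIC110, its co-chaperone partner TIC40 and the receptor TOC33 rose in both tissues, by 1.49-fold to 2.01-fold. The channel gene TOC75-III passed the threshold in rosettes, and the receptor gene TOC159 in seedlings, both higher. The low-level receptor gene TOC120 fell in rosettes, and it was the 1 subunit gene with a fall past the threshold in either tissue. TOC132, TOC34, TIC20-I and CLPC1 did not pass the threshold in rosettes or in seedlings.

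In rosettes 4 of the 10 genes were higher and 1 lower past q 0.05, where 7.81% of the 18338 tested loci were higher and 8.94% lower. In seedlings 4 of 10 were higher and 0 lower in Cuffdiff's test, where 8.4% of the 19747 tested loci were higher and 8.14% lower, and no subunit gene had a lower value with an unadjusted p under 0.05. Among loci at 10 FPKM or more in wild type, the level of most of these genes, the share called higher was 5.64% in rosettes and 7.84% in seedlings. Rises in both tissues were called for 3 of 10 genes, where 4.05% of the 17890 loci tested in both were so called. The median log2 ratio of the 10 genes was 0.11 in rosettes and 0.41 in seedlings, and that of all tested loci was 0.01 in each tissue. The ratio was above 0 for 5 of 10 genes in rosettes and for 9 of 10 in seedlings.

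Other thresholds gave other counts. With q under 0.01, 2 of 10 genes were higher and 0 lower in rosettes (4.47% and 5.25% of all tested loci), and 4 were higher and 0 lower in seedlings (5.01% and 5.32%). With q under 0.1, 4 were higher and 1 lower in rosettes (10.4% and 11.8% of loci), and 6 were higher and 0 lower in seedlings (10.8% and 10.3%). With a 2-fold minimum beside q 0.05, TIC110 was the 1 gene higher in rosettes and 0 were lower (3.96% and 5.36% of loci), and in seedlings 0 were higher and 0 lower (1.23% and 1.73%).

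**Figure D1:**
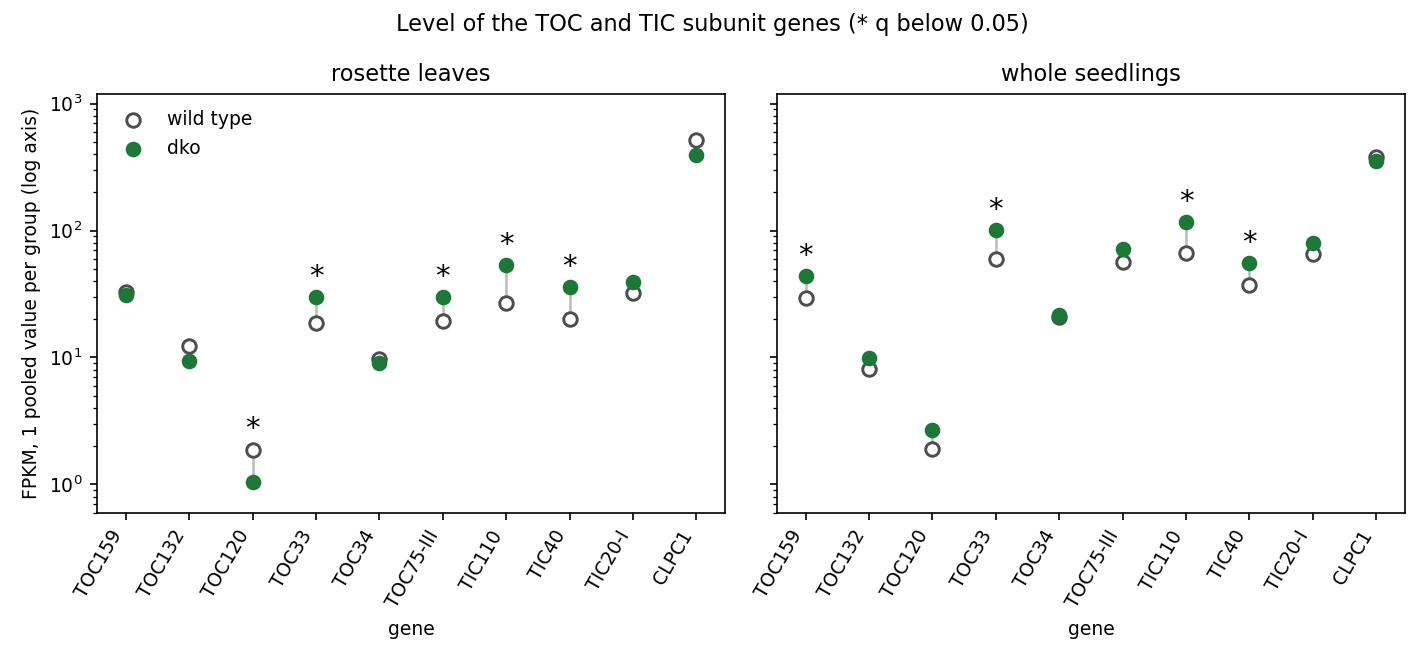
FPKM of the 10 subunit genes (log axis) in rosette leaves and whole seedlings, with open circles for wild type, filled circles for the dko and an asterisk where q is below 0.05; each circle is 1 value pooled over the replicates of a group. CLPC1 lies between 354 and 515 FPKM in all 4 groups, far above the others, and TOC120 is the lowest gene in each group.

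TOC159, TOC132 and TOC120, receptor genes of the TOC159 family, had log2 ratios below 0 in rosettes and above 0 in seedlings. TOC159 (AT4G02510), the main receptor of photosynthetic precursor proteins, occupies bases 1104766 to 1109600 on the plus strand of chromosome 4 (all gene positions are TAIR10 and come from the tables). Its rosette values in the authors' deposited table were 32.9 FPKM for wild type against 30.9 for the dko (log2 ratio -0.09, q = 0.858). Its seedling values rose from 29.3 to 43.9 FPKM, with a log2 ratio of 0.58 and q = 0.000768 in the authors' deposited table. The difference between the tissues was not tested, since no replicate values were at hand.

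TOC132 (AT2G16640) and TOC120 (AT3G16620) are related large receptor GTPases, and each of them can partly replace the other in the plant. TOC132, on the minus strand of chromosome 2 at 7211112 to 7215553, had 12.3 FPKM in wild-type against 9.43 in dko rosettes (log2 ratio -0.38, q = 0.246), per the authors' deposited table. In the seedling table deposited by the authors it had 8.10 against 9.81 FPKM (log2 ratio 0.28, q = 0.143). TOC120, on the minus strand of chromosome 3 at 5656371 to 5661963, fell in rosettes from 1.88 to 1.05 FPKM, a log2 ratio of -0.84 with q = 0.0444 in the authors' deposited table (-0.49 with a pseudocount of 1). Its seedling values were 1.92 and 2.66 FPKM (log2 ratio 0.47, q = 0.0532), just outside the threshold and opposite in sign. Of these 6 ratios, those of TOC120 in rosettes and TOC159 in seedlings passed the test. TOC90, a further member of the family from the wider list, had log2 ratios of -0.01 in rosettes (q = 0.986) and 0.20 in seedlings (q = 0.388), per the authors' deposited tables. The span that the tables give to TOC120 also holds AT3G16610, a neighbour on the same strand. In RefSeq the TOC120 gene spans 5658317 to 5662066. How reads were divided between TOC120 and AT3G16610 is not stated. For AT3G16610 the authors' deposited table has 0.764 FPKM in wild-type against 1.11 in dko rosettes (q = 0.601), a ratio opposite to that of TOC120. In seedlings AT3G16610 had 0.988 FPKM in wild type against 1.79 in the dko (authors' q = 0.115), the same direction as TOC120 there. The first annotated transcripts of TOC132 and TOC120 share an exact stretch of 53 bases, and 5 of the stretches of 50 bases in TOC120 also occur in TOC132.

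Of the smaller receptors, TOC33 moved and its paralog TOC34 did not pass the test. TOC33 (AT1G02280), the TOC34-family receptor predominant in green tissue, lies on the minus strand of chromosome 1 at 448463 to 450426 and has 8 exons in its first annotated transcript. In the authors' deposited tables it rose from 18.5 to 30.0 FPKM in rosettes, which is 1.62-fold (q = 0.0121), and from 60.1 to 100.3 FPKM in seedlings, which is 1.67-fold (q = 0.000768). TOC34 (AT5G05000), on the minus strand of chromosome 5 at 1474113 to 1476409 and also of 8 exons, had 9.67 against 8.96 FPKM in rosettes (log2 ratio -0.11, q = 0.836) and 20.8 against 21.5 FPKM in seedlings (log2 ratio 0.05, q = 0.880), per the authors' deposited tables. The longest exact stretch shared by the first transcripts of TOC33 and TOC34 was 18 bases. A missed threshold does not show that TOC34 was equal in the groups, and the difference between the ratios of both paralogs was not tested.

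TOC75-III (AT3G46740), the beta-barrel channel of the outer envelope and the main TOC75 isoform, lies on the minus strand of chromosome 3 at 17215813 to 17219343. The authors' deposited rosette table shows a rise from 19.3 to 29.9 FPKM, or 1.55-fold (q = 0.0248). In seedlings it stood at 56.1 FPKM against 71.2 FPKM, or 1.27-fold (q = 0.0567 in the authors' deposited table), which misses the threshold. In rosettes TOC75-III and TOC33 were at nearly equal levels in both groups, with a TOC75-III to TOC33 ratio of 1.04 in wild type and 0.997 in the dko. In seedlings this ratio was 0.934 in wild type and 0.709 in the dko.

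The largest rise among the 10 genes in each tissue was that of TIC110 (AT1G06950), a scaffold that holds chaperones at the stromal side of the inner envelope. It lies on the minus strand of chromosome 1 at 2130142 to 2135665, with 15 exons. In the authors' deposited tables TIC110 rose from 26.7 to 53.5 FPKM in rosettes, or 2.01-fold (q = 0.000899), and from 66.5 to 116 FPKM in seedlings, or 1.75-fold (q = 0.000768). Among all tested loci its log2 ratio was at percentile 94.5 in rosettes and 96.4 in seedlings. In rosettes TIC110 was 4th in level among the 10 genes in wild type and 2nd in the dko, behind CLPC1.

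TIC40 (AT5G16620), a co-chaperone that works with TIC110 and the stromal Hsp93 chaperones, lies on the plus strand of chromosome 5 at 5450696 to 5454535 and has 14 exons. Its rosette level rose from 20.1 to 35.7 FPKM, with a log2 ratio of 0.83 (q = 0.00164), and its seedling level from 37.1 to 55.3 FPKM, with a log2 ratio of 0.57 (q = 0.000768), per the authors' deposited tables. TIC20-I (AT1G04940), a membrane protein of the inner-envelope channel, had 31.9 against 39.5 FPKM in rosettes (log2 ratio 0.31, q = 0.553) and 65.5 against 79.4 FPKM in seedlings (log2 ratio 0.28, q = 0.236), per the authors' deposited tables. Its ratio had the sign of those of TIC110 and TIC40 in both tissues without passing the test. TIC20-I lies on the plus strand of chromosome 1, and the span of 1399174 to 1407501 in the tables is shared with AT1G04945 and AT1G04950. Neither neighbour passed the threshold in the authors' deposited tables (smallest q = 0.390), and the sources used here do not say how reads of overlapping loci were divided.

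CLPC1 (AT5G50920), also called Hsp93-V, is the main Hsp93 chaperone of the stroma, which takes part in import and in protein turnover by the Clp protease. It lies on the minus strand of chromosome 5 at 20715469 to 20720374. The authors' deposited tables give CLPC1 515 FPKM in wild-type against 394 in dko rosettes (log2 ratio -0.38, q = 0.485), and 379 against 354 FPKM in seedlings (log2 ratio -0.10, q = 0.807). It was the 1 gene of the 10 with a ratio below 0 in both tissues, and neither ratio passed the test. Its wild-type level exceeded that of 98.8% of tested loci in rosettes and 98.5% in seedlings.

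**Figure D2:**
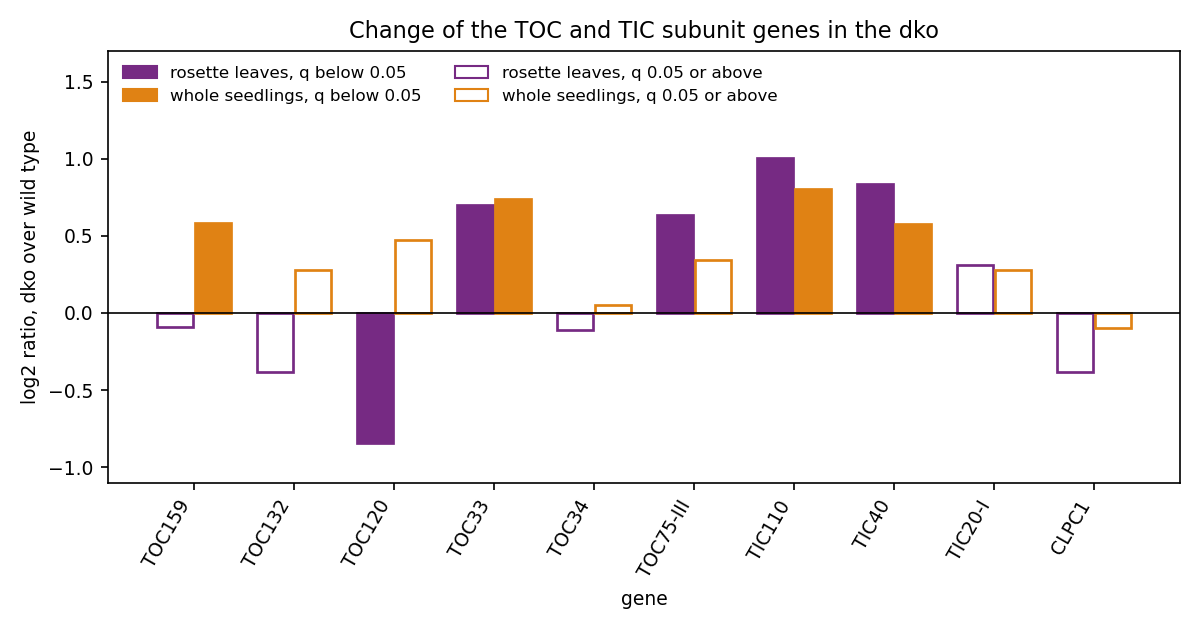
Log2 ratio of dko over wild type for the 10 subunit genes in rosette leaves (purple) and whole seedlings (orange), with filled bars where q is below 0.05 and open bars elsewhere; bars start at 0 and carry no error, since replicate values were not at hand. TOC33, TIC110 and TIC40 have filled bars above 0 in both tissues, and TOC120 has the 1 filled bar below 0.

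The order of the levels was compared within each table, as the tables were normalised separately. In wild-type rosettes CLPC1 was followed by TOC159 (32.9 FPKM), TIC20-I (31.9), TIC110 (26.7), TIC40 (20.1), TOC75-III (19.3), TOC33 (18.5), TOC132 (12.3), TOC34 (9.67) and TOC120 (1.88 FPKM). In wild-type seedlings the order after CLPC1 was TIC110 (66.5 FPKM), TIC20-I (65.5), TOC33 (60.1), TOC75-III (56.1), TIC40 (37.1), TOC159 (29.3), TOC34 (20.8), TOC132 (8.10) and TOC120 (1.92 FPKM). TOC159 was thus above TOC33 in wild-type rosettes and below it in wild-type seedlings. The spread between replicates is not given per gene, so the order of genes at similar levels, such as TIC40, TOC75-III and TOC33 in wild-type rosettes, could not be tested.

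Ratios between subunit genes within a group, some of them paralogs and others different components, are given as description with no test. The TOC159 to TOC33 ratio was 1.78 in wild-type and 1.03 in dko rosettes, and 0.488 and 0.437 in seedlings. TOC34 amounted to 0.522 of TOC33 in wild-type and 0.298 in dko rosettes, and to 0.346 and 0.214 in seedlings, lower in the dko in each tissue. TOC132 and TOC120 together were at 0.431 of TOC159 in wild-type and 0.339 in dko rosettes, and at 0.341 and 0.284 in seedlings. On the inner envelope side, TIC110 over TIC20-I went from 0.836 to 1.35 in rosettes and from 1.02 to 1.46 in seedlings, with the limit of the shared TIC20-I span. CLPC1 over TIC110 went from 19.3 to 7.37 in rosettes and from 5.69 to 3.05 in seedlings.

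**Figure D3:**
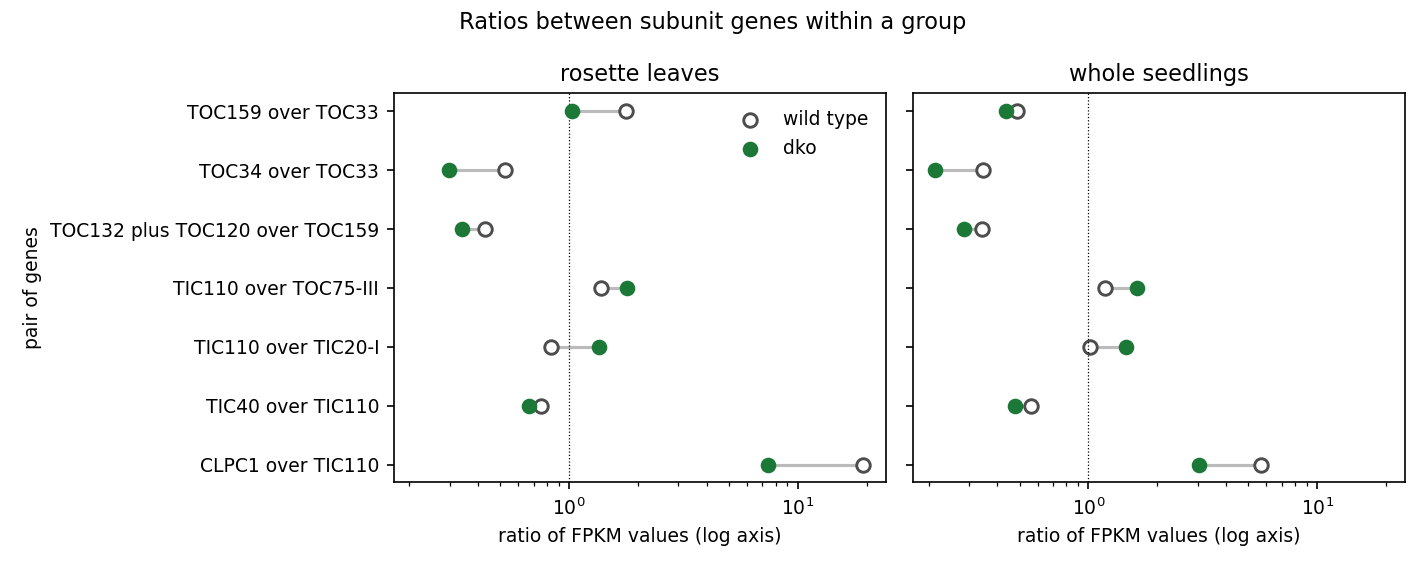
Ratios between FPKM values of subunit genes (log axis) in wild type (open circles) and the dko (filled circles), for rosette leaves and whole seedlings; each circle is computed from pooled values and has no error. The TOC34 to TOC33 and CLPC1 to TIC110 ratios are lower in the dko in both tissues, and the TIC110 to TOC75-III and TIC110 to TIC20-I ratios are higher.

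The DNA before all 10 genes was inspected for 4 short motifs within 300 bases upstream of the annotated start, on both strands, in the RefSeq TAIR10.1 sequence. This start is that of RefSeq and can differ from the gene positions printed above. For CLPC1 it is 20720681, beside 20720374 above, and for TOC159 it is 1104429, beside 1104766. The G-box (CACGTG) was in 7.09% of the 27437 windows of protein-coding genes, the telo-box (AAACCCTA) in 5.21%, the site II element (TGGGCC) in 14.6% and the mitochondrial dysfunction motif (CTTG and CAAG with 5 bases of any kind between them), known from genes that respond to mitochondrial stress, in 0.860%. Of the 10 windows, 2 held a G-box (TOC120 and CLPC1), 1 a telo-box (TOC159), 3 a site II element (TOC120, TOC34 and TIC20-I) and 1 the mitochondrial dysfunction motif (TOC33). The site II match of TOC34 lies in the 202 bases of its window that the neighbouring gene AT5G05010 covers. The TIC20-I window overlaps AT1G04930 and AT1G04945, and whether its 2 site II matches lie inside these genes was not examined. A match is a description of letters only, and no overlap between matches was found.

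The upstream stretches of TIC110 and TIC40, which rose in both tissues, and of TOC120, which fell in rosettes, are shown to set the genes of opposite direction side by side. Each is given 5′ to 3′ on the strand of the gene and ends at the base before the annotated start, and only bases that no other annotated gene covers are included. Capitals mark motif matches, which among these 3 stretches are present for TOC120 alone: a site II element read on the other strand (ggccca) and a G-box. The TIC110 stretch is chr1:2135704-2135809 on the minus strand, that of TIC40 is chr5:5450320-5450619 on the plus strand and that of TOC120 is chr3:5662067-5662366 on the minus strand. The last line is the site in the TOC33 window, chr1:450665-450693 on the minus strand, with the mitochondrial dysfunction motif in capitals from 259 to 247 bases before the start of TOC33. This site lies inside a coding exon of the neighbouring gene AT1G02290.
TIC110: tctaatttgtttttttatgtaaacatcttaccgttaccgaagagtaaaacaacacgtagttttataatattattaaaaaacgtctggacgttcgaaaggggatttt
TIC40: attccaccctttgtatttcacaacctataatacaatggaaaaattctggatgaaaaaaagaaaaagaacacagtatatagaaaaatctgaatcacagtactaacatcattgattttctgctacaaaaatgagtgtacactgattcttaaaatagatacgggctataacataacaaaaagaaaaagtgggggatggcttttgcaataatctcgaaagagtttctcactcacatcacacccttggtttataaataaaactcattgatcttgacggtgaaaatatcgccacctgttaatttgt
TOC120: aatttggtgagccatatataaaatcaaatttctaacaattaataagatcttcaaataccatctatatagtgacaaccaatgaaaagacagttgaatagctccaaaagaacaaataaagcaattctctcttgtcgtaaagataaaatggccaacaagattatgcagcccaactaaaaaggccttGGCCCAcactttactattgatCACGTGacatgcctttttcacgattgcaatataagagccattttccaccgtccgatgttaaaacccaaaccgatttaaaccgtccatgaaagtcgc
TOC33 site: ttgttttcCTTGACTTACAAGcgaagaaa

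The rest of the import pathway was described through 34 further nuclear genes in 5 lists, of which all but TOC75-IV were tested. In rosettes 9 of 33 rose and 0 fell past q 0.05 in Cuffdiff's test, and 1 lower gene, TIC32-IVA, had an unadjusted p under 0.05. In the authors' deposited table TIC32-IVA had a log2 ratio of -0.59 (q = 0.0537). In seedlings 15 of 33 rose and 1 fell. Over all tested loci the shares were 7.81% higher and 8.94% lower in rosettes, and 8.4% and 8.14% in seedlings, and the list counts below stand beside the same shares. Their median log2 ratio was 0.28 in rosettes and 0.33 in seedlings, against 0.01 for all tested loci in each tissue. Rises in both tissues were called for 8 of the 33 tested genes, where 4.05% of all loci tested in both were so called.

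Of the remaining outer envelope genes, TOC64-III, which encodes a docking protein for precursors bound to chaperones, rose in rosettes from 10.3 to 20.2 FPKM (q = 0.000899) and in seedlings from 18.9 to 25.2 FPKM (q = 0.0134), per the authors' deposited tables. It was the 1 of 3 tested genes of its list to pass in each tissue, and TOC90 and OEP80 did not. Of 12 other inner envelope genes, 2 rose in rosettes, and 4 rose and 1 fell in seedlings. TIC20-IV, a paralog of TIC20-I, rose in rosettes from 4.73 to 17.3 FPKM (q = 0.000899) and in seedlings from 2.74 to 6.40 FPKM (q = 0.000768), per the authors' deposited tables. Its level relative to TIC20-I was 0.148 in wild-type and 0.437 in dko rosettes, and 0.0419 and 0.0805 in seedlings. TIC100, a subunit of the large TIC complex that also holds TIC20-I and TIC56, rose by log2 ratios of 0.61 in rosettes (q = 0.0315) and 0.38 in seedlings (q = 0.0288) in the authors' deposited tables. TIC56 (log2 ratio 0.65, q = 0.000768) and TIC22-III, of the intermembrane space (0.45, q = 0.0379), rose in seedlings per the authors' deposited table. TIC62, a protein with a redox-related role, fell in seedlings, where the authors' deposited table has 80.2 against 57.8 FPKM (q = 0.00504).

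The Ycf2-FtsHi complex, a motor that has been proposed to pull proteins across the inner envelope, was represented by 6 nuclear genes, without Ycf2 itself. Of these genes 2 of 6 were higher in rosettes and 4 of 6 in seedlings (7.81% and 8.4% of all tested loci). None was lower, and all 6 ratios were above 0 in both tissues. FTSH12 rose in rosettes from 7.02 to 16.7 FPKM (q = 0.0117) and in seedlings from 21.6 to 41.4 FPKM (q = 0.000768), per the authors' deposited tables. The same tables deposited by the authors give FTSHI4 7.08 against 13.1 FPKM in rosettes (q = 0.000899) and 22.8 against 38.8 FPKM in seedlings (q = 0.000768), both rises. FTSHI5 (log2 ratio 0.71, q = 0.000768) and FTSHI1 (0.48, q = 0.00258) rose in seedlings in the authors' deposited table. The span given to FTSH12 is shared with AT1G79570, and how reads were divided between them is not stated.

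Stromal chaperone and processing genes were higher in 2 of 7 cases in rosettes and 5 of 7 in seedlings (7.81% and 8.4% of all tested loci), with none lower. HSP90.5, the plastid Hsp90, rose in rosettes from 42.8 to 87.0 FPKM (q = 0.000899) and in seedlings from 88.6 to 181 FPKM (q = 0.000768), per the authors' deposited tables. CPHSC70-1, a plastid Hsp70, rose in rosettes from 67.3 to 104 FPKM (q = 0.0493) and in seedlings from 137 to 194 FPKM (q = 0.00681), per the authors' deposited tables. CLPC2, the close paralog of CLPC1, had 7.60 against 6.84 FPKM in rosettes (q = 0.728) and rose in seedlings from 23.3 to 42.4 FPKM (q = 0.000768), per the authors' deposited tables. CLPC1 was 16.3 times CLPC2 in wild-type and 8.34 times in dko seedlings, and their first transcripts share no exact stretch longer than 38 bases. CPHSC70-2 (log2 ratio 0.40, q = 0.0223) and PREP1, which degrades cleaved transit peptides (0.52, q = 0.00141), rose in seedlings, per the authors' deposited table. The span given to CPHSC70-2 is shared with AT5G49920, with the same limit as for FTSH12.

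Of 5 genes of import regulation and TOC turnover, 2 rose in rosettes and 1 in seedlings. CIA2, a transcription factor known to promote expression of import genes including TOC33 and TOC75-III, rose in rosettes from 5.28 to 8.38 FPKM (q = 0.0493) and had 29.9 against 34.6 FPKM in seedlings (q = 0.298), per the authors' deposited tables. CIL, its close homolog, rose in rosettes from 0.208 to 2.84 FPKM (q = 0.00164) and in seedlings from 8.51 to 11.95 FPKM (q = 0.0177), per the authors' deposited tables. Its rosette log2 ratio of 3.77 rests on a low wild-type value and was 1.67 with a pseudocount of 1. SP1, which encodes a ubiquitin ligase that marks TOC proteins for removal, SP2 and CDC48A did not pass the threshold in either tissue. The q-values of CPHSC70-1 and CIA2 in rosettes became 0.0501 when organelle-encoded loci were left out of the adjustment.

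**Figure D4:**
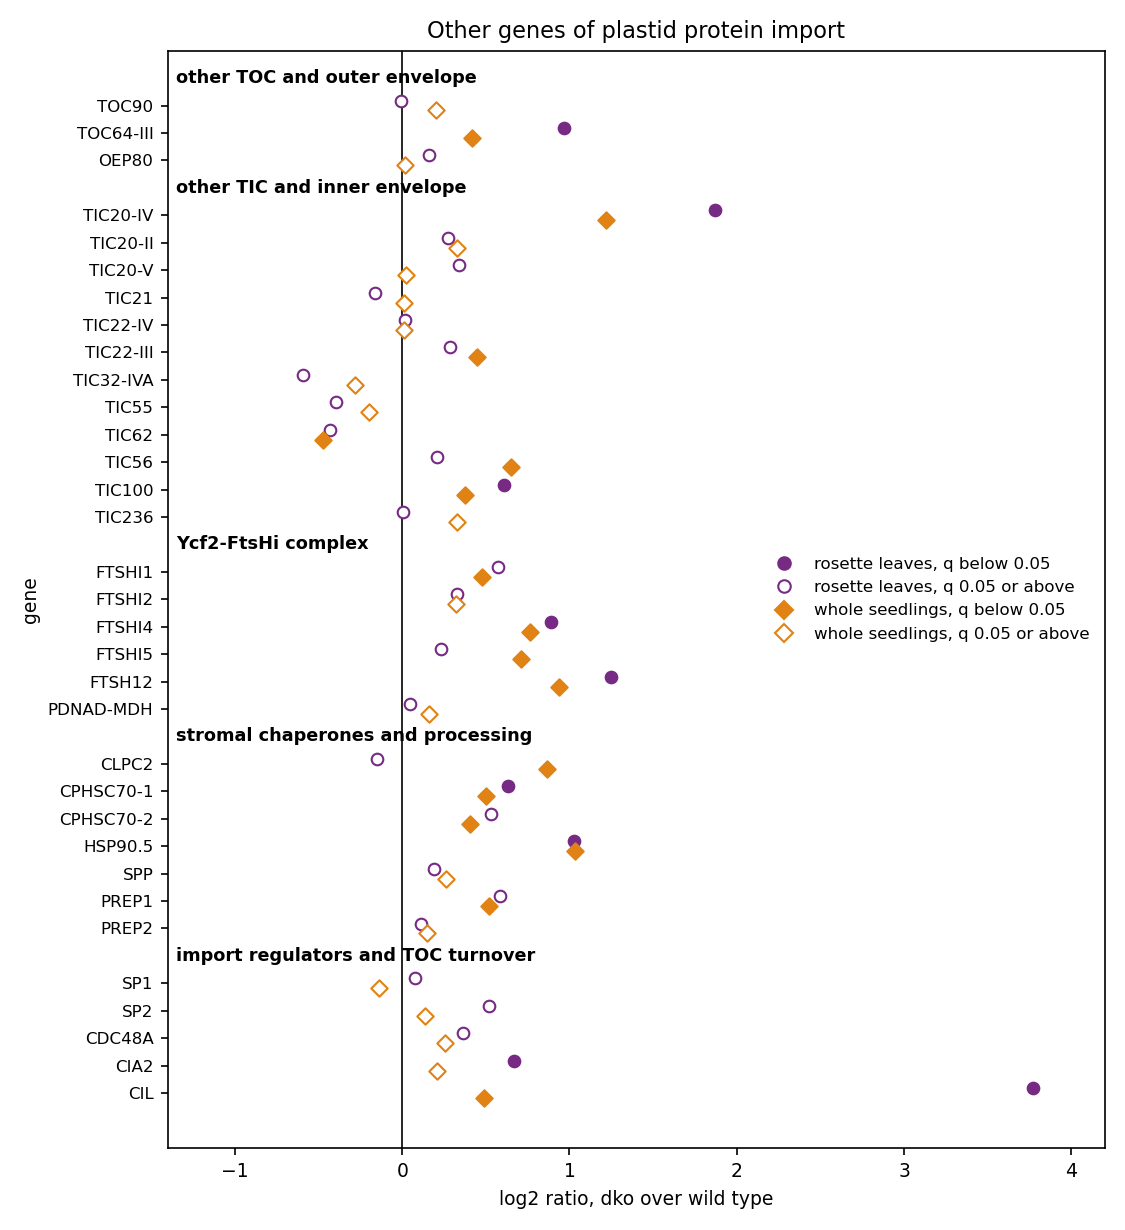
Log2 ratio of dko over wild type for the 33 tested genes of the other import lists, with circles for rosette leaves and diamonds for whole seedlings, filled where q is below 0.05. CIL (log2 ratio 3.77) and TIC20-IV (1.87) in rosettes lie farthest to the right, the former at 1.67 with a pseudocount of 1, and TIC62 in seedlings has the 1 filled symbol below 0.

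Markers of green tissue were lower in the dko in both tissues, opposite in direction to most import genes past the threshold. The summed FPKM of 3 such genes (RBCS1A, CAB3 and RCA) was 8722 in wild-type and 5057 in dko rosettes, and 18819 and 10101 in seedlings, lower in the dko for each of the 3 genes. CAB3 and RCA passed the threshold in both tissues and RBCS1A in neither. The part of this difference in the values of the import genes was not tested. In bulk samples of this kind, fewer cells of a type and less RNA per cell cannot be told apart.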

How the data were processed

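Stranded libraries were prepared from total RNA with a kit that removes plant ribosomal RNA, per the labels' protocols. Bowtie2, TopHat2, Cufflinks and Cuffdiff (all listed with version 2.2.0) and the TAIR10 genome are named in the submitters' processing notes. The sources used here do not give the annotation, the use of strand or the division of reads that match several loci. For each tissue the authors deposited a table of 1 pooled FPKM for each locus and group, the log2 ratio of dko over wild type, a test score (not used here) and a p-value and q-value per locus, per the file headers.

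No counts or replicate values were at hand, so the authors' deposited q-value was the test in place of the planned fits per replicate. Depth is unknown. Among low values of loci of equal span, 4.06% (rosettes) and 4.17% (seedlings) lay within 0.02 of a whole multiple of the lowest. Spans include introns and the values are pooled, so this check could neither show nor exclude steps of whole reads. The q-value could be recomputed by Benjamini-Hochberg adjustment over tested loci (largest gap 5.24e-07), with a function tested on simulated data. Fold changes and ratios between genes were computed from the deposited FPKM.

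The members and gene lists were chosen with earlier results of these data known. Named genes are all 10 subunit genes, list genes past q 0.05 in either tissue, and the targeted genes. TIC32-IVA, the genes that share a span with a subunit or list gene, the tissue markers, and genes named beside their list that missed the threshold were added after values were seen. Motifs were chosen after the ratios were known. Loci were matched to the RefSeq TAIR10.1 annotation (46 of 46), and all 27983 nuclear loci present in both overlapped their reference gene on the same chromosome. The start or the end was equal for 42.6% of these loci. Alternatives tried were a q of 0.01 or of 0.1, at least 2-fold change, at least 1 FPKM, organelle-encoded loci left out, recentred ratios, and pseudocounts of 1 and 0.1. Python 3.11.15 with pandas 2.3.3 was used.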

Additional observations from a re-analysis of the deposited data

How the results depend on the processing

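No paired analysis was possible because the tables hold 1 pooled value per group and no replicate values, and leaving out a replicate could not be run for the same reason. Under the 5 alternatives that can change a call, 87 of 100 subunit gene values kept their side of the threshold, 11 no longer passed and 2 newly passed (TOC120 and TOC75-III in seedlings at q 0.1). A stricter rule cannot add a call and q 0.1 cannot remove one, so part of the 87 was fixed in advance. The 2-fold minimum removed 8 calls and q 0.01 removed 3. Recentring, which can change a sign and leaves q as deposited, kept the sign of 20 of 20 subunit gene values. The pseudocounts also leave q as deposited and cannot change a sign, so they are no check of it. With q 0.01 the subunit genes higher in rosettes numbered 2 and those lower 0, and the other import genes higher in rosettes numbered 5. With a 2-fold minimum the subunit genes higher numbered 1 in rosettes (TIC110) and 0 in seedlings, and those lower in rosettes 0. Under that minimum the other import genes higher numbered 4 in rosettes and 2 in seedlings, and those lower in seedlings 0. With q 0.1 the other import genes lower in rosettes numbered 1. Recentring the ratios on their median turned the sign of TIC236 in rosettes (-0.0052) and of TIC21 in seedlings (-2.9e-05), both near 0 and far from the threshold. The stricter thresholds call fewer loci by construction. Unknown depth and the absence of replicate values limit all comparisons. With a pseudocount of 1 the rosette log2 ratios of TOC120 and CIL, both low in wild type, were -0.49 and 1.67.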
